A study of Homo sapiens with 24 samples.

Results

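LN229 is an established human glioblastoma cell line, and LN229-R is a derivative resistant to temozolomide, the alkylating drug used against glioblastoma. The account below compares 3 libraries named LN229-R with 3 named LN229, all given the solvent DMSO for 96 h, which are 6 of the 24 RNA-seq libraries of the study. The others come from U87 MG and U87-R cells, or were treated with 50 µM STM2457, an inhibitor of the m6A writer METTL3. Both LN229 lines grew in DMEM with 5% serum and sodium pyruvate. The medium of LN229-R also held 50 µM temozolomide and that of LN229 none, so lasting resistance and the presence of the drug cannot be told apart here. Members were chosen by name, as the 6 columns of the deposited table that holds both lines, with earlier results of these data known.

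Temozolomide methylates DNA bases. MGMT takes the methyl group off guanine and so reverses the most toxic lesion, while mismatch repair turns the lesion into lethal breaks when MGMT is missing. Glioblastomas whose MGMT promoter is methylated respond better to the drug. LN229 cells are commonly described as lacking MGMT.

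The names of the 6 columns conflict with those of 2 further tables, in which the same DMSO libraries stand beside the STM2457 libraries of each line. All 6 columns were closest to the library that bears the other line's name and the same replicate number, with an SD of the log2 ratio of 0.0574 to 0.0604 across at least 10861 genes. For the like-named library it was 0.336 to 0.402. In the U87 family all 6 columns were closest to the like-named library. Every direction below is therefore given as the columns are labelled in the table of LN229-R and LN229, and it may be reversed. "Rose" and "fell" are used for genes with an adjusted p under 0.05 (limma, Benjamini and Hochberg), relative to LN229 so labelled.

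Values are the authors' normalized counts, which summed to 26868968 to 28689809 per library. Depth in reads is not given in the sources used here. Correlations of log2 values were 0.976 to 0.987 within a group and 0.955 to 0.963 between groups. LN229 replicate 2 stood apart: ribosomal protein genes took 4.63% of its counts, against 2.84 and 3.02% in the other LN229 libraries and 3.56 to 4.06% in LN229-R. VIM, CD44 and NES, which mark mesenchymal and neural stem-like glioma cells, averaged 72680.0, 14346 and 12926 in LN229-R and 71242, 15030.0 and 12530.0 in LN229. Of 15 immune cell markers 3 were listed, and they summed to 98.8 to 140.3 in LN229-R and 72.7 to 104.8 in LN229. The sums for markers of endothelial cells were 128 to 156 in LN229-R and 103 to 194 in LN229, for epithelial cells 1911 to 2270 in LN229-R and 1336 to 1636 in LN229, for neurons 12459 to 12902 in LN229-R and 11305 to 12919 in LN229, and for the oligodendrocyte lineage 94030 to 95325 in LN229-R and 105130 to 114010 in LN229. Whether replicates came from different cultures is not stated in the labels. If they did not, the p-values reflect technical spread alone.

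Of 17136 genes tested, 959 rose and 626 fell in LN229-R, which is 9.25% of all tested genes, 5.6% in the upward and 3.65% in the downward direction. Scaling each library to equal totals moved the median of all genes to 0.05 and gave 1189 higher and 472 lower, so that 71.6% of calls were upward, against 60.5% with the authors' scaling. With the replicate number as a block 1426 rose (8.32%) and 1174 fell (6.85%), 15.2% in all. Leaving out LN229-R replicate 1, 2 or 3 left 606, 683 or 534 called genes, and leaving out LN229 replicate 1, 2 or 3 gave 1039, 3262 or 906. Without LN229 replicate 2, 1789 rose (10.4%) and 1473 fell (8.59%). Counts for gene lists under the block or without LN229 replicate 2 are to be read against these shares. The call was kept in every one of these 6 fits by 317 genes that rose and 141 that fell. Large differences were one-sided: among called genes, 447 rose and 115 fell by at least 1 on the log2 scale, and 178 rose and 5 fell by at least 3. Some called genes were nearly absent from LN229 and met the level filter only through LN229-R. Shares of rises, in the lists and over all genes, include them.

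Many of the large differences were between a clear signal and almost none. Under a rule that asks for a mean of at least 20 in one group and less than 3 in every library of the other, 95 genes were present in LN229-R alone and 12 in LN229 alone. The rule uses the mean and not the call, so an entry can enter through 1 library. 7SK averaged 103 in LN229 with a highest library of 309, and limma did not call it (adjusted p = 0.45). Some other small RNA entries on both sides also rest on 1 library. Of the 95 and 12, 78 and 1 were protein-coding genes with a symbol. The single one on the LN229 side was MGMT (chromosome 10, 129467184 to 129768007), which was listed at 0 in all 3 LN229-R libraries and had 208, 196 and 191 normalized counts in LN229 (adjusted p = 2.8e-05). The groups did not overlap, which was so for 30.9% of all tested genes, and no fold is given against a group at 0. The oxidative demethylases that act on other methylated bases had log2 changes of -0.03 (SE 0.12) for ALKBH2 and 0.09 (SE 0.12) for ALKBH3, neither of which passed.

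Present in LN229-R alone were genes of quite different kinds. SLIT3 had 371, 416 and 349 normalized counts in LN229-R, against 0, 0.724 and 0 in LN229, and the gene (chromosome 5, 168661733 to 169301129) encodes a secreted guidance ligand for Robo receptors (log2 change 8.30, SE 0.32, adjusted p = 2.8e-05). TMPRSS15 had 319, 265 and 353 normalized counts in LN229-R, against 0, 0.89 and 0.799 in LN229. TMPRSS15 (chromosome 21, 18269116 to 18485879) encodes enteropeptidase, the intestinal protease that activates trypsinogen (log2 change 7.69, SE 0.34, adjusted p = 3.6e-05). MAGEA11 had 279, 275 and 282 normalized counts in LN229-R, against 2.36, 0 and 0.532 in LN229, and its product belongs to the cancer-testis antigens and binds the androgen receptor (log2 change 7.34, SE 0.44, adjusted p = 0.00013). In each of these genes the highest LN229 library was under 3 and the lowest LN229-R library over 260. Log2 changes of such genes are on the log2(value + 1) scale and depend on the pseudocount, with 9.13 for SLIT3 at a pseudocount of 0.5 and 6.19 at 5. TUBA3C, an alpha tubulin gene with near-identical copies between which reads can be split, had 683, 678 and 680.4 in LN229-R and was listed at 0 in all LN229 libraries (adjusted p = 2.8e-06).

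The same rule with a mean of at least 100 named 13 genes on the LN229-R side and 4 on the LN229 side. POSTN encodes the matrix protein periostin, and POSTN had 193, 97.9 and 220.0 normalized counts in LN229-R, against 0.87, 0 and 0 in LN229. TCEAL7 is a gene of the X chromosome, and TCEAL7 had 152, 126 and 149 normalized counts in LN229-R, against 0, 0 and 1.61 in LN229. PLBD1, a lysosomal phospholipase-like gene, had 154, 157 and 146 in LN229-R, and TNFRSF11B, which encodes the RANKL decoy osteoprotegerin, had 161, 133 and 143. Both were listed at 0 in every LN229 library. The kinase gene STK26 had 175, 129 and 137 in LN229-R and 1.37, 1 and 1.67 in LN229, and VGLL3, a cofactor of TEAD transcription factors, had 65.6, 87.7 and 147 in LN229-R and 1.86, 0 and 0.864 in LN229. Among the genes at lower levels, chosen after their values were seen, SLFN11, which blocks stressed replication forks and sensitizes cells to DNA-damaging drugs, had 26, 117 and 49.1 in LN229-R and 0, 0 and 1.55 in LN229 (log2 change 5.31, SE 0.64, adjusted p = 0.0024). The serotonin receptor gene HTR2C, the homeobox gene LMX1B and the neuronal adhesion gene SLITRK5, chosen in the same way, were listed at 0 in every LN229 library. HTR2C had 95.3, 84.6 and 84.3 in LN229-R, LMX1B had 65.6, 61.5 and 53.6 and SLITRK5 had 79.5, 90.9 and 97.5.

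Promoters of 4 of these genes are shown because DNA methylation at CpG pairs is the known control of MGMT in glioblastoma and of MAGE genes in tumours. Each line gives the 250 bases before the RefSeq start (build GRCh38.p14), 5′ to 3′ on the gene's strand, with CpG pairs in capitals. The windows are chr10:129466991-129467240, plus strand for MGMT, chr5:169301140-169301389, minus strand for SLIT3, chrX:149711810-149712059, plus strand for MAGEA11 and chr21:18403786-18404035, minus strand for TMPRSS15.
MGMT: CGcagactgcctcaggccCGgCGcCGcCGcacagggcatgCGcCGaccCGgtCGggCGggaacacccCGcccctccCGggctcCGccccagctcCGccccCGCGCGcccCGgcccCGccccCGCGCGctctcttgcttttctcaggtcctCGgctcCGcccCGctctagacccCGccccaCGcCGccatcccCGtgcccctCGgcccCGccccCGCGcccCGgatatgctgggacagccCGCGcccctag
SLIT3: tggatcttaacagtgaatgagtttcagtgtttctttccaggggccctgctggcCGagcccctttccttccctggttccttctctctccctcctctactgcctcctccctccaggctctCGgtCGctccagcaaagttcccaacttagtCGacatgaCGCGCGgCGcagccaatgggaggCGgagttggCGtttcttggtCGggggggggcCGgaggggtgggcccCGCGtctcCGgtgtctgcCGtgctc
MAGEA11: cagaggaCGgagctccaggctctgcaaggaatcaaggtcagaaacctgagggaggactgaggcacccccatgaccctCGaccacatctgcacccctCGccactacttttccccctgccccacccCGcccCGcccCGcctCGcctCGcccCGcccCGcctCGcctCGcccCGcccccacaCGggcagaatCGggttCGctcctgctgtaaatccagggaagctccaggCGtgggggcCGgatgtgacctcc
TMPRSS15: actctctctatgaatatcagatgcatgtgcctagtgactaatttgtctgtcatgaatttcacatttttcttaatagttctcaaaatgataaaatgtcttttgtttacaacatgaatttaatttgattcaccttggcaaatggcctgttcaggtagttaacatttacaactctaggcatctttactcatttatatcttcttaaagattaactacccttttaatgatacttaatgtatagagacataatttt
MGMT has 36 CpG pairs in this window, a number reached by 4.85% of the 35116 RefSeq promoter windows of the same length. SLIT3 has 16 and MAGEA11 has 18, reached by 41.0 and 36.8%. TMPRSS15 has 0, as do 6.06% of the windows. For TMPRSS15 the RefSeq start lies inside the gene as GENCODE places it, so the window is not upstream of the GENCODE start. The MGMT window runs past the GENCODE start, so its last bases lie inside the gene. Of the 78 protein-coding genes present in LN229-R alone, 62 had a promoter in the table, and their median was 13 CpG pairs (range 0 to 51), against 11 over all windows. Methylation was not measured, and the counts describe only these letters.

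**Figure D1:**
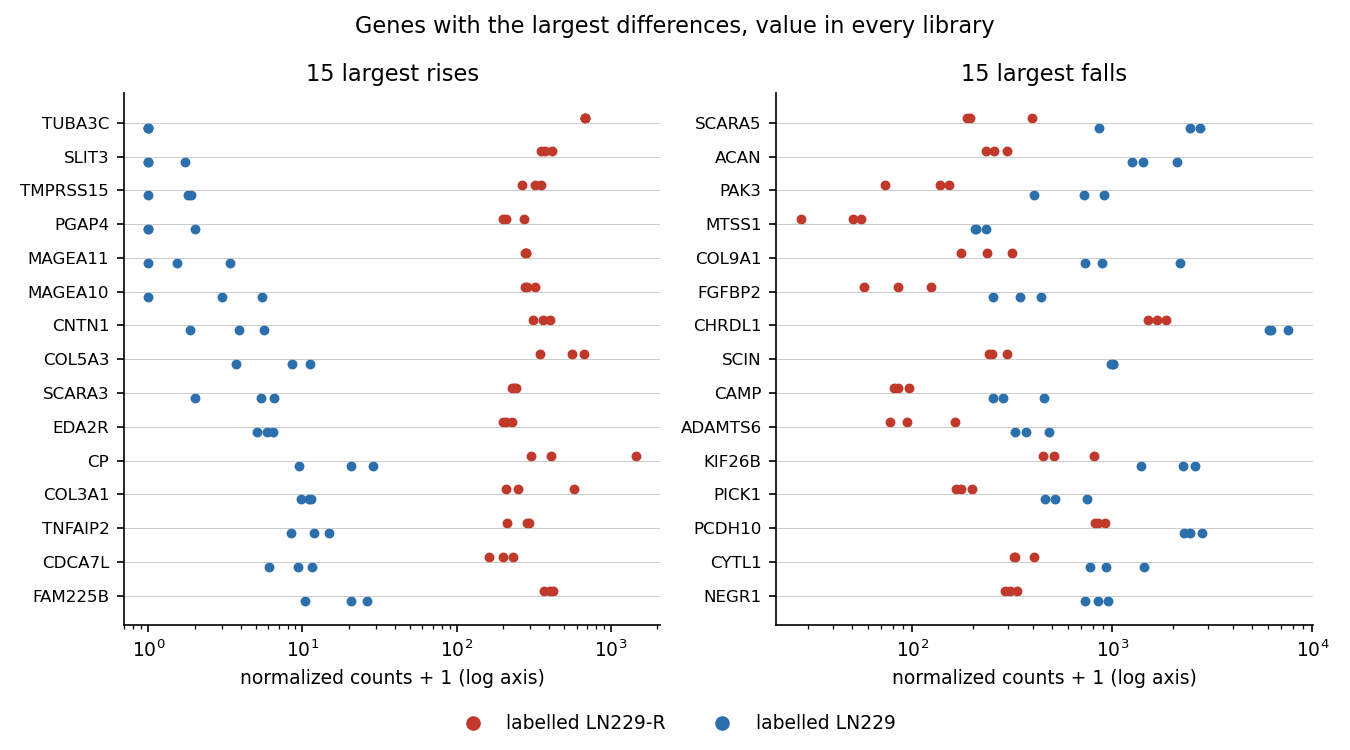
Normalized counts plus 1 on a log axis in every library for the 15 largest rises (left panel) and 15 largest falls (right panel) among called genes that averaged 100 or more and whose groups were apart, with the libraries labelled LN229-R in red above those labelled LN229 in blue; points are single libraries. The genes were chosen for groups that do not overlap. SLIT3, TMPRSS15 and MAGEA11 had LN229 values under 3.

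Cancer-testis antigens, which are silent in most adult tissues outside the testis, moved both ways: 5 rose and 2 fell among 15 tested members of 74 in the list. The 5 that rose were under 10 in every LN229 library and passed the level filter only through LN229-R, so their share of the tested members is not set against that of all genes. MAGEA10 had 278, 286 and 319 normalized counts in LN229-R, against 0, 2 and 4.47 in LN229 (log2 change 6.86, SE 0.56, adjusted p = 0.0004). SSX1 (5.38, SE 0.46) and PAGE5 (2.80, SE 0.46) also rose, as did XAGE1B, which had 63.9, 56.3 and 72.2 in LN229-R and was listed at 0 in all LN229 libraries. PAGE5 fell under the level filter, a mean of 10, without any 1 LN229-R library. MAGEA12 and MAGEA3, members of the same X-linked family, were already expressed and were lower in LN229-R: MAGEA12 had 927, 864 and 926 in LN229-R, against 1828, 1551 and 1737 in LN229 (-0.91, SE 0.09), and MAGEA3 changed by -0.51 (SE 0.10). Counts of MAGEA and XAGE1 genes can share reads between near-identical copies. 5 rose and 4 fell with the replicate block or without LN229 replicate 2, and calls of 4 that rose and 1 that fell held whichever library was left out. The call was lost for MAGEA3 without LN229-R replicate 1 or 2 or 3 or LN229 replicate 3 (highest adjusted p 0.081).

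In the collagen list 6 rose and 4 fell among 35 tested members of 43 (17.1% and 11.4%, against 5.6% and 3.65% of all genes), with a median log2 change of -0.27 over tested members against -0.01 over all genes. COL5A2 had 845, 646 and 536 normalized counts in LN229-R, against 58.1, 68.3 and 55.5 in LN229 (log2 change 3.44, SE 0.19, adjusted p = 9.9e-05). COL3A1 had 577, 247 and 209 normalized counts in LN229-R, against 8.73, 10.4 and 10 in LN229 (log2 change 4.86, SE 0.37, adjusted p = 0.00027). Groups did not overlap in either gene, as in 30.9% of tested genes, and LN229-R replicate 1 was the highest library in each. COL5A3 (6.16, SE 0.43), COL5A1 (0.94, SE 0.11) and COL1A1 (1.89, SE 0.29) rose as well. Of these, COL5A1 lies in the chromosome 9 stretch described below. COL9A1, a chain of the type IX collagen that decorates cartilage fibrils, had 174, 312 and 234 in LN229-R, against 888, 2186 and 731 in LN229 (log2 change -2.26, SE 0.39, adjusted p = 0.012), and COL27A1 (-0.50, SE 0.09) and COL4A4 (-0.81, SE 0.20) fell. 5 of the rises and 0 of the falls were called in all 6 fits that left out 1 library, while 6 rose and 9 fell with the replicate block or without LN229 replicate 2. Limma no longer called COL9A1 without LN229-R replicate 1 or 3 (highest adjusted p 0.059), COL27A1 without LN229-R replicate 1 or 2 or 3 or LN229 replicate 3 (highest adjusted p 0.078) and COL4A4 without LN229-R replicate 1 or 2 or 3 or LN229 replicate 1 or 3 (highest adjusted p 0.15).

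The proteoglycan list had 11 rises and 3 falls among 40 tested members of 56 (27.5% and 7.5%, against 5.6% and 3.65% of all genes). Among the rises, GPC4 and SPOCK3 were under 10 in every LN229 library and met the level filter only through LN229-R. Their direction was fixed by that filter, and the share of rises includes them. ACAN had 296, 233 and 256 normalized counts in LN229-R, against 1424, 2101 and 1249.7 in LN229 (log2 change -2.57, SE 0.19, adjusted p = 0.00026), a fall in aggrecan, the large chondroitin sulfate proteoglycan of cartilage and of brain matrix. LUM, a keratan sulfate proteoglycan of fibrils, fell by 1.21 on the log2 scale. GPC4 had 162, 133 and 124 normalized counts in LN229-R, against 0, 3.02 and 0 in LN229, and this cell-surface heparan sulfate proteoglycan rose with GPC3 (1.95, SE 0.24). Small leucine-rich and other members rose too: DCN (1.91, SE 0.24), BGN (1.83, SE 0.23), SDC1 (1.31, SE 0.21) and SPOCK1 (1.58, SE 0.23), and the regulator of cartilage genes SOX9 (3.04, SE 0.41). SOX9 and its target ACAN moved in opposite directions. 12 rose and 8 fell with the replicate block, and 12 rose and 10 fell without LN229 replicate 2, and calls of 8 that rose and 2 that fell held whichever library was left out. The fibroblast marker list shares members such as COL3A1, COL1A1, DCN and LUM with these lists. It had 4 rises and 1 fall among 7 tested members of 11 (57.1% and 14.3%, against 5.6% and 3.65% of all genes). The summed level of that list was 2524 to 3896 in LN229-R and 3714 to 4454 in LN229. Its part in the matrix results was not tested.

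Guidance and adhesion genes of neurons changed in both directions. Besides SLIT3, in the list of semaphorins, plexins and neuropilins 6 rose and 4 fell among 29 tested members of 31 (20.7% and 13.8%, against 5.6% and 3.65% of all genes). SEMA6B had 909, 1075 and 883 normalized counts in LN229-R, against 324, 300.5 and 306 in LN229 (log2 change 1.62, SE 0.11, adjusted p = 0.00019). SEMA4D (5.11, SE 0.59), PLXNA1 (0.79, SE 0.07) and PLXND1 (0.96, SE 0.10) rose, the last of these a receptor for SEMA3E, whose own RNA fell (-0.91, SE 0.17). PLXNA1 and PLXND1 lie in the chromosome 3 stretch and SEMA4D in the chromosome 9 stretch described below, where 62.5% and 23.3% of tested genes rose. Netrin 1, NTN1, fell by 0.98. CNTN1 had 364, 403 and 312 normalized counts in LN229-R, against 4.6, 2.89 and 0.857 in LN229, and this neuronal contactin (log2 change 6.71, SE 0.40, adjusted p = 0.00013) and the adhesion molecule L1CAM (2.34, SE 0.29) rose. CNTN1 met the level filter only through LN229-R, which fixed its direction. PCDH10 (-1.54, SE 0.10) and the neurotrimin relative NEGR1 (-1.44, SE 0.13) fell. 4 of the rises and 0 of the falls were called in all 6 fits that left out 1 library, while 6 rose and 6 fell with the replicate block or without LN229 replicate 2. There was no call for SEMA3E without LN229-R replicate 1 or 2 or LN229 replicate 3 (highest adjusted p 0.074).

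Among receptor tyrosine kinases, which transmit growth factor signals, 1 rose and 4 fell among 25 tested members of 38 (4% and 16%, against 5.6% and 3.65% of all genes). PDGFRA had 407, 298 and 301 normalized counts in LN229-R, against 852, 845 and 764 in LN229 (log2 change -1.30, SE 0.14, adjusted p = 0.0015), and this receptor marks the proneural and oligodendrocyte precursor state. KIT, its neighbour on chromosome 4, had 55.6, 50.3 and 71.2 in LN229-R, against 131, 169 and 172 in LN229 (-1.40, SE 0.21). Every LN229-R library was below every LN229 library in both genes (groups did not overlap in 30.9% of tested genes). The related PDGFRB (1.07, SE 0.24) and its ligand gene PDGFB (4.46, SE 0.57) were higher, with PDGFB at 28.1, 66.7 and 33.4 in LN229-R and 0.847, 0 and 2.41 in LN229. PDGFB met the level filter only through LN229-R, which fixed its direction. 2 rose and 4 fell with the replicate block, and 1 rose and 5 fell without LN229 replicate 2, and calls of 0 that rose and 2 that fell held whichever library was left out. The call was lost for PDGFRB without LN229-R replicate 1 or 2 or 3 (highest adjusted p 0.12).

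Genes of the BMP pathway, in which secreted BMPs act through SMAD proteins on ID genes and antagonists hold them back, changed among ligands, antagonists and targets. Of the BMP and TGF-beta ligands, BMP2 had 43.5, 52.1 and 49.2 in LN229-R, against 6.66, 3.08 and 4.53 in LN229 (log2 change 3.14, SE 0.34, adjusted p = 0.0015). BMP6 (-1.02, SE 0.24) and the activin subunit gene INHBA (-0.80, SE 0.16) fell. CHRDL1 had 1512, 1844 and 1672 normalized counts in LN229-R, against 6086, 7569 and 6178 in LN229, and it encodes the BMP antagonist chordin-like 1 (log2 change -1.98, SE 0.11, adjusted p = 0.00012). The target ID1 had 4019, 2836 and 2863 in LN229-R, against 1096, 1075 and 1086 in LN229 (log2 change 1.56, SE 0.14, adjusted p = 0.00054), and ID3 (1.27, SE 0.18) rose with it. Among antagonists and co-receptors 2 rose and 1 fell among 19 tested members of 26 (10.5% and 5.26%, against 5.6% and 3.65% of all genes), CHRDL1 being the fall and FSTL1 (0.53, SE 0.09) and ENG (0.36, SE 0.08) the rises. FSTL1 lies in the chromosome 3 stretch and ENG in the chromosome 9 stretch described below, where 62.5% and 23.3% of tested genes rose. Groups did not overlap in the 3 genes given by library, against 30.9% of tested genes. In the list of BMP and TGF-beta ligands 1 rose and 4 fell among 11 tested members of 22 (9.09% and 36.4%, against 5.6% and 3.65% of all genes). Its 1 rise, BMP2, was under 10 in every LN229 library and met the level filter only through LN229-R. The direction of BMP2 was fixed by that filter. The 4 falls were BMP8B, INHBA, TGFB3 and BMP6, so not all of them are BMPs. In the list of receptors and targets 2 rose and 0 fell among 18 tested members of 20 (11.1% and 0%, against 5.6% and 3.65% of all genes), both of them called in every fit that left out 1 library. For the ligands, 1 of the rises and 0 of the falls were called in all 6 fits that left out 1 library, while 1 rose and 5 fell with the replicate block, and 1 rose and 4 fell without LN229 replicate 2. Limma no longer called BMP6 without LN229-R replicate 1 or 2 or 3 or LN229 replicate 3 (highest adjusted p 0.14), INHBA without LN229-R replicate 2 or 3 or LN229 replicate 1 or 3 (highest adjusted p 0.074), FSTL1 without LN229-R replicate 1 (highest adjusted p 0.055) and ENG without LN229-R replicate 1 or 2 or 3 or LN229 replicate 1 or 3 (highest adjusted p 0.13).

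Complement genes were grouped after their values were seen, and some of them rose. C1S, a protease of the C1 complex, had 1529.9, 839.7 and 899 normalized counts in LN229-R, against 111, 161 and 74.2 in LN229 (log2 change 3.24, SE 0.31, adjusted p = 0.00084). Its partner protease C1R (0.91, SE 0.15), clusterin, CLU (3.01, SE 0.27), and factor B, CFB (2.87, SE 0.67), rose too. The central component C3 had 296, 216 and 224 in LN229-R and 70.3, 167 and 29.9 in LN229 and did not pass (log2 change 1.76, SE 0.52, adjusted p = 0.077), but did with the replicate block (adjusted p = 0.041) and without LN229 replicate 2 (2.37, adjusted p = 0.0021). CFI, a protease that cleaves C3b, had a log2 change of 0.34 (SE 0.19) and did not pass, but did without LN229 replicate 2 (0.53, adjusted p = 0.029). Further members did not pass, with -0.11 (SE 0.13) for C1RL, 0.28 (SE 0.38) for C2, 0.51 (SE 0.30) for C4A, 0.95 (SE 0.43) for C4B, 0.21 (SE 0.12) for C5 and 1.88 (SE 0.58) for SERPING1, the C1 inhibitor. C4A and C4B are near-identical copies that can share reads. The membrane regulators CD46, CD55 and CD59 did not pass either, at -0.12 (SE 0.08), 0.15 (SE 0.11) and -0.09 (SE 0.11). There was no call for CFB without LN229-R replicate 1 or 2 or 3 (highest adjusted p 0.14).

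Of genes of iron storage, uptake and ferroptosis, 5 rose and 0 fell among 24 tested members of 27 (20.8% and 0%, against 5.6% and 3.65% of all genes). CP, the ferroxidase ceruloplasmin, had 1453, 304 and 410.0 in LN229-R, against 19.6, 27.8 and 8.55 in LN229 (log2 change 4.99, SE 0.61, adjusted p = 0.0025), with LN229-R replicate 1 well above the others. The iron exporter ferroportin (SLC40A1) had 29.4, 39.2 and 34.2 in LN229-R and 0, 0 and 3.6 in LN229. SLC40A1 met the level filter only through LN229-R, and the share of rises in this list includes it. The metal reductases STEAP2 (4.35, SE 0.40) and STEAP3 (1.59, SE 0.23) rose as well. 9 rose and 0 fell with the replicate block, and 8 rose and 1 fell without LN229 replicate 2, and calls of 4 that rose and 0 that fell held whichever library was left out. The water channel AQP1 (3.65, SE 0.25) and the drug transporter ABCC3 (3.36, SE 0.35) rose in the same libraries, with ABCC3 at 1762, 960.4 and 1212 in LN229-R, against 132, 73.4 and 193 in LN229.

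Of aldehyde dehydrogenase and aldo-keto reductase genes, 5 rose and 1 fell among 21 tested members of 28 (23.8% and 4.76%, against 5.6% and 3.65% of all genes). AKR1B1 had 6041, 5202 and 5253 normalized counts in LN229-R, against 3569.6, 3174 and 3792 in LN229 (log2 change 0.65, SE 0.10, adjusted p = 0.0072), and it encodes aldose reductase. AKR1C2 (1.47, SE 0.28) and ALDH2 (3.63, SE 0.90) rose as well, ALDH2 being the mitochondrial enzyme that clears acetaldehyde. With a pseudocount of 0.5 ALDH2 did not pass (adjusted p = 0.059). For the enzymes of that list, 1 of the rises and 0 of the falls were called in all 6 fits that left out 1 library, while 6 rose and 3 fell with the replicate block, and 8 rose and 2 fell without LN229 replicate 2. In the glutathione list 2 rose and 2 fell among 28 tested members of 35 (7.14% and 7.14%, against 5.6% and 3.65% of all genes). The membrane transferase MGST1 (5.92, SE 0.63) and the transpeptidase GGT5 (5.02, SE 0.52) rose, and the cystine carrier SLC7A11 (-0.99, SE 0.17) and GSTA4 (-0.87, SE 0.15) fell. The call was lost for AKR1C2 without LN229-R replicate 1 or 3 (highest adjusted p 0.087), ALDH2 without LN229-R replicate 1 or 2 or 3 or LN229 replicate 3 (highest adjusted p 0.15), SLC7A11 without LN229-R replicate 1 (highest adjusted p 0.054) and GSTA4 without LN229-R replicate 1 or 3 (highest adjusted p 0.059).

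Antigen presentation and interferon genes changed in part. In the list of MHC class I presentation 5 rose and 1 fell among 23 tested members of 25 (21.7% and 4.35%, against 5.6% and 3.65% of all genes). HLA-B had 5861, 5746 and 4880.1 in LN229-R, against 1849.9, 3570.2 and 2162 in LN229 (log2 change 1.17, SE 0.22, adjusted p = 0.016), with LN229 replicate 2 the highest of the LN229 libraries. The class II gene HLA-DQA1 had 1422, 1708 and 1533 in LN229-R, against 584, 843 and 611 in LN229 (log2 change 1.21, SE 0.15, adjusted p = 0.0027). Reads of HLA genes can be split between alleles and relatives. In the interferon response list 7 rose and 1 fell among 41 tested members of 46 (17.1% and 2.44%, against 5.6% and 3.65% of all genes). Its rises included IFITM2 (1.51, SE 0.18), IFITM1 (1.64, SE 0.29), near-identical neighbours that can share reads, and the chromosome 3 genes PARP9, DTX3L and PARP14 described below, while the tetherin gene BST2 fell (-0.82, SE 0.15). For class I presentation, 9 rose and 1 fell with the replicate block, and 10 rose and 2 fell without LN229 replicate 2, and calls of 0 that rose and 0 that fell held whichever library was left out. For the interferon list, 4 of the rises and 0 of the falls were called in all 6 fits that left out 1 library, while 11 rose and 2 fell with the replicate block, and 10 rose and 1 fell without LN229 replicate 2. Limma no longer called HLA-B without LN229-R replicate 1 or 2 or 3 or LN229 replicate 3 (highest adjusted p 0.077), IFITM1 without LN229-R replicate 1 (highest adjusted p 0.055) and BST2 without LN229-R replicate 2 or 3 (highest adjusted p 0.075).

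In the list of NF-kB targets 4 rose and 0 fell among 22 tested members of 24 (18.2% and 0%, against 5.6% and 3.65% of all genes). TNFAIP2, a member, stood at 293, 286 and 210.0 normalized counts in LN229-R, against 7.39, 10.9 and 13.8 in LN229 (log2 change 4.52, SE 0.27, adjusted p = 0.00013). In a separate list of chemokines and cytokines 3 rose and 2 fell among 16 tested members of 41 (18.8% and 12.5%, against 5.6% and 3.65% of all genes). There the death ligand TRAIL, TNFSF10 (2.04, SE 0.30), and the monocyte attractant CCL2 (1.81, SE 0.21) rose, and the cytokine LIF (-1.31, SE 0.12) fell. EDA2R, a receptor for ectodysplasin A2 and a p53 target, had 228, 200.1 and 208 in LN229-R, against 4.91, 4.07 and 5.48 in LN229 (log2 change 5.20, SE 0.23, adjusted p = 3.6e-05). EDA2R met the level filter only through LN229-R, which fixed its direction. In the list of p53 targets, which leaves out EDA2R, 2 rose and 3 fell among 27 tested members of 28 (7.41% and 11.1%, against 5.6% and 3.65% of all genes), with a median of -0.17. GDF15 and BTG2 rose, and DDB2, TNFRSF10B and TP53I3 fell. For the p53 targets, 3 rose and 6 fell with the replicate block or without LN229 replicate 2, and calls of 0 that rose and 0 that fell held whichever library was left out. For the NF-kB targets, 1 of the rises and 0 of the falls were called in all 6 fits that left out 1 library, while 8 rose and 1 fell with the replicate block, and 12 rose and 0 fell without LN229 replicate 2.

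Of chaperones and folding enzymes of the endoplasmic reticulum, 0 rose and 10 fell among 31 tested members of 31 (0% and 32.3%, against 5.6% and 3.65% of all genes), with a median of -0.28. PDIA6, a disulfide isomerase, had 25258, 24716 and 23192 in LN229-R, against 40242, 42785 and 37221 in LN229 (log2 change -0.72, SE 0.10, adjusted p = 0.0044). CRELD2 (-0.56, SE 0.09) and DNAJC3 (-0.48, SE 0.09) fell too. The master chaperone HSPA5 had a log2 change of -0.16 (SE 0.11) and did not pass. 0 rose and 15 fell with the replicate block, and 0 rose and 12 fell without LN229 replicate 2, and calls of 0 that rose and 1 that fell held whichever library was left out. There was no call for CRELD2 without LN229-R replicate 3 (highest adjusted p 0.057) and DNAJC3 without LN229-R replicate 2 or 3 (highest adjusted p 0.079).

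In the ganglioside and glycan list, 6 rose and 5 fell among 30 tested members of 37 (20% and 16.7%, against 5.6% and 3.65% of all genes). PGAP4, which adds a sugar to GPI anchors, had 199.9, 274 and 207 in LN229-R and 0, 1.01 and 0 in LN229. PGAP4 met the level filter only through LN229-R, and the share of rises in this list includes it. The sialyltransferases ST3GAL6 (1.71, SE 0.12) and ST6GALNAC2 (0.93, SE 0.10) rose, and ST8SIA4 (-0.95, SE 0.14), a polysialic acid synthase, and ST8SIA1 (-0.76, SE 0.13), which makes the ganglioside GD3, fell. Of the rises, PGAP4 lies in the chromosome 9 stretch described below and ST3GAL6 in the chromosome 3 stretch. Among potassium channels 4 rose and 3 fell among 26 tested members of 69 (15.4% and 11.5%, against 5.6% and 3.65% of all genes). The BK channel pore KCNMA1 (-1.26, SE 0.08) and the astrocyte channel KCNJ10 (-1.23, SE 0.17) fell, and the BK accessory subunit KCNMB4 (3.53, SE 0.22) rose. Among calcium and sodium channels 4 rose and 0 fell among 16 tested members of 39 (25% and 0%). CACNA1C, the pore of an L-type calcium channel, had 124, 39.9 and 106 in LN229-R and 0.568, 0 and 0 in LN229. CACNA1C met the level filter only through LN229-R, and the share of rises in its list includes it. For the glycan list, 3 of the rises and 2 of the falls were called in all 6 fits that left out 1 library, while 6 rose and 5 fell with the replicate block, and 7 rose and 7 fell without LN229 replicate 2. The call was lost for ST8SIA1 without LN229-R replicate 1 or 3 (highest adjusted p 0.07).

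**Figure D2:**
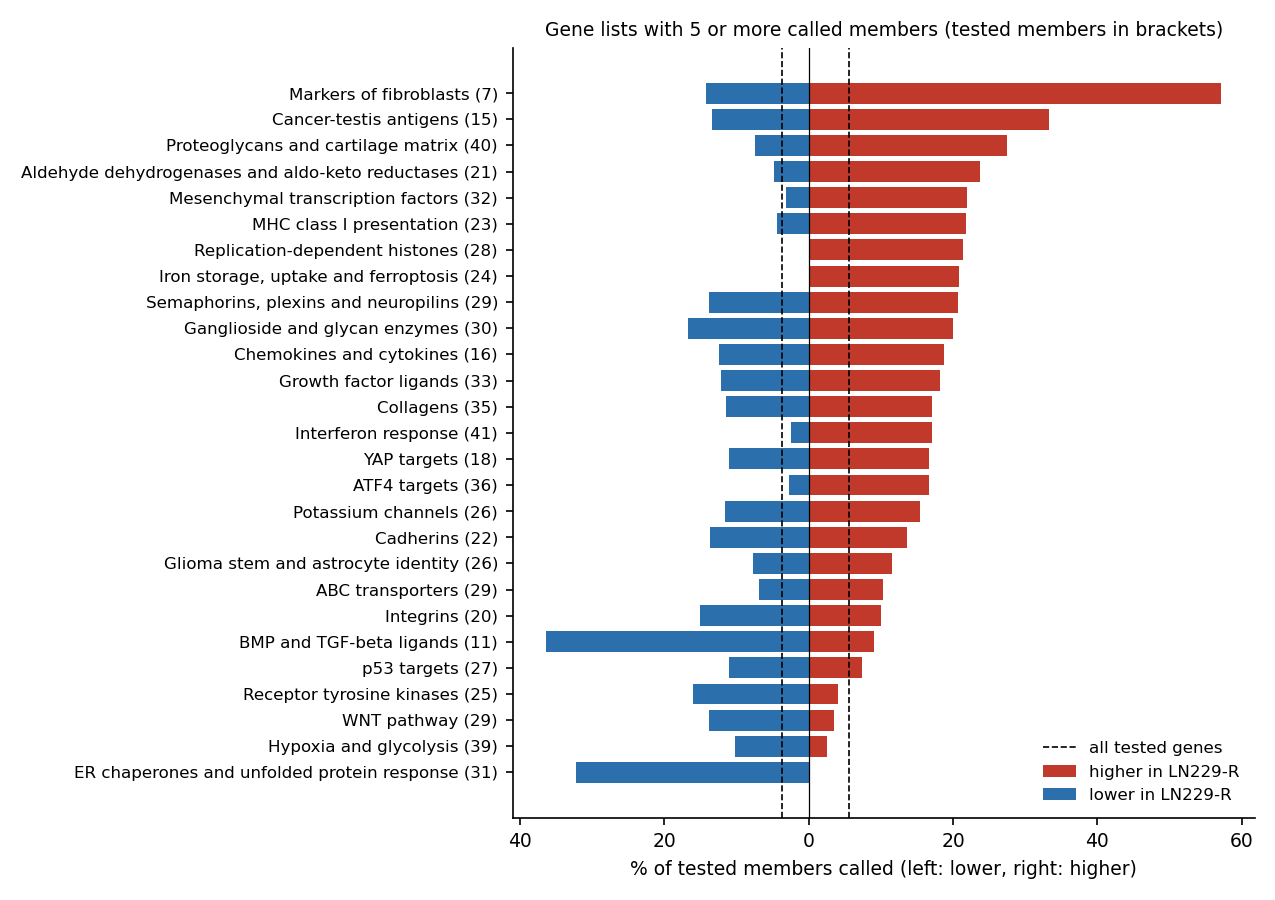
Share of tested members called higher (red, right) and lower (blue, left) in LN229-R against LN229 for the 27 gene lists with 5 or more called members, with the number of tested members in brackets. Dashed lines mark 5.6% and 3.65%, the shares over all 17136 tested genes. Shares of rises include members that met the level filter only through LN229-R, among them the 5 cancer-testis rises. Chaperones of the endoplasmic reticulum reach 32.3% lower with 0 higher, and iron genes and replication-dependent histones have rises alone.

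In mismatch repair 0 of 11 tested genes passed. Of 12 tested translesion genes 0 passed, and of 26 genes of m6A writing, erasing and reading 0 passed, by limma at an adjusted p under 0.05. Over all tested genes 9.25% passed, so 0 calls in lists this short does not show that they were unchanged. With the replicate block, under which 15.2% of all genes passed, the counts were 1 higher in mismatch repair, 1 lower in translesion synthesis and 0 in the m6A list. Without LN229 replicate 2 the counts were 1 in mismatch repair, 3 lower in translesion synthesis, and 1 higher and 2 lower in the m6A list. In base excision repair 1 rose and 1 fell among 21 tested members of 21 (4.76% each, against 5.6% and 3.65% of all genes). The glycosylase MBD4, which removes thymine opposite guanine, had 881, 823 and 919.9 in LN229-R, against 438, 378 and 506 in LN229 (log2 change 0.99, SE 0.13, adjusted p = 0.0029), and TDG, with a similar activity, fell (-0.46, SE 0.10). MBD4 lies in the chromosome 3 stretch described below, where 62.5% of tested genes rose. Medians of the replication and mitosis lists were 0.32 and 0.24, and without LN229 replicate 2 they were 0.03 and -0.07, which moved with that 1 library. Limma no longer called TDG without LN229-R replicate 1 or 2 or 3 or LN229 replicate 1 or 3 (highest adjusted p 0.11).

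Shares of called genes differed between chromosomes. Positions are from a GENCODE annotation of GRCh38, which placed 15910 of the tested genes. On chromosome 3, 142 of 890 tested genes rose (15.96%) and 25 fell. On chromosome 9, 99 of 620 rose (15.97%) and 8 fell, and on chromosome 16, 77 of 764 rose (10.1%) and 4 fell. Chromosome 5 had 81 of 785 higher (10.3%) and 39 lower, and chromosome 20 had 40 of 406 higher (9.85%) and 8 lower. Chromosome 21 leaned the other way, with 5 of 195 higher and 20 lower (10.3%). Where 4 or more tested genes in a row were called in the same direction, the stretch was counted as a run. There were 15 runs, all upward, and 12 of them, with 75 genes, lay on chromosome 3 between positions 93873033 and 129606818.

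The longest run held 12 genes from EFCC1 to PLXND1 (chromosome 3, 129001629 to 129606818), with log2 changes of 0.60 to 1.31. It included CNBP, a nucleic acid binding protein, COPG1, a coat protein of Golgi vesicles, HMCES, which shields abasic sites in single-stranded DNA, the linker histone gene H1-10 and MBD4. ISY1-RAB43 is a readthrough of 2 of its neighbours and shares their reads. HMCES had 1577, 1529.9 and 1503 normalized counts in LN229-R, against 820.3, 777 and 737 in LN229 (log2 change 0.98, SE 0.08, adjusted p = 0.0005). COPG1 had 4586, 4327 and 4203 normalized counts in LN229-R, against 2743, 2701 and 2467 in LN229 (log2 change 0.73, SE 0.08, adjusted p = 0.0016). In both genes the groups did not overlap, against 30.9% of tested genes.

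Further runs lay on the same arm. In the run from KPNA1 to SLC49A4, DTX3L had 1324, 1169 and 1330.1 in LN229-R, against 519, 522 and 517 in LN229 (log2 change 1.29, SE 0.09, adjusted p = 0.00021), and its partner PARP9, transcribed from the same promoter region, had 802, 782 and 777 in LN229-R, against 347, 380.4 and 327 in LN229 (log2 change 1.16, SE 0.10, adjusted p = 0.00052). MCM2, a subunit of the replicative helicase, had 3845, 3290.5 and 3765 in LN229-R, against 2028, 1080.4 and 1974 in LN229, and stood in a run with PLXNA1 (log2 change 1.15, SE 0.23, adjusted p = 0.018). The kinase GSK3B (0.86, SE 0.12), the GTPase RAB7A (0.90, SE 0.08), the translocon subunit SEC61A1 (0.75, SE 0.08), the AAA ATPase RUVBL1 (1.04, SE 0.09), the integrin ITGB5 (0.65, SE 0.10) and the ribosomal protein RPL24 (0.74, SE 0.18) rose within these runs as well. Of 79 tested cytosolic ribosomal protein genes RPL24 was the 1 that passed, and without LN229 replicate 2 the count was 54. There was no call for MCM2 without LN229-R replicate 1 or 2 or 3 (highest adjusted p 0.085), ITGB5 without LN229-R replicate 3 (highest adjusted p 0.054) and RPL24 without LN229-R replicate 1 or 2 or 3 or LN229 replicate 1 or 3 (highest adjusted p 0.14).

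Medians over windows of 40 neighbouring tested genes, a size chosen after seeing the data, do not use calls. The 386 windows had medians with an SD of 0.15. In 7 stretches at least 2 adjacent windows lay at 0.25 or beyond in 1 direction. On chromosome 3 the stretch from CPOX (98579446) to TMCC1-DT (129918575) held 160 tested genes, 152 of them with a positive change, and its median was 0.75. There 100 rose (62.5%) and 1 fell. The median deviation from the 6-library mean was 0.37, 0.37 and 0.35 in LN229-R and -0.32, -0.39 and -0.37 in LN229. Leaving out 1 library gave medians of 0.71 to 0.76.

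Chromosome 5 changed in both directions. From CCDC127 to SELENOP (196871 to 42887392) the median over 120 genes was 0.47, with 43 higher and 2 lower, and from IL31RA to GFM2 (55851379 to 74767371) it was -0.33 over 80 genes, with 0 higher and 20 lower. Chromosome 9 from CTSL to ANAPC2 (87725519 to 137188549) had a median of 0.30 over 360 genes, with 84 higher and 1 lower. Chromosome 17 from SNHG20 to FOXK2 (77086716 to 82644662) had 0.34 over 120 genes. Shorter stretches on chromosome 16 (ATP2A1 to RNF40) and chromosome 20 (L3MBTL1 to ZFP64) had 0.31 and 0.26 over 80 genes each. With equal totals per library the 7 medians were 0.80, 0.53, -0.28, 0.35, 0.37, 0.39 and 0.32 in order of chromosome number and position. Outside these stretches 4.39% of 14910 genes rose and 3.88% fell.

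**Figure D3:**
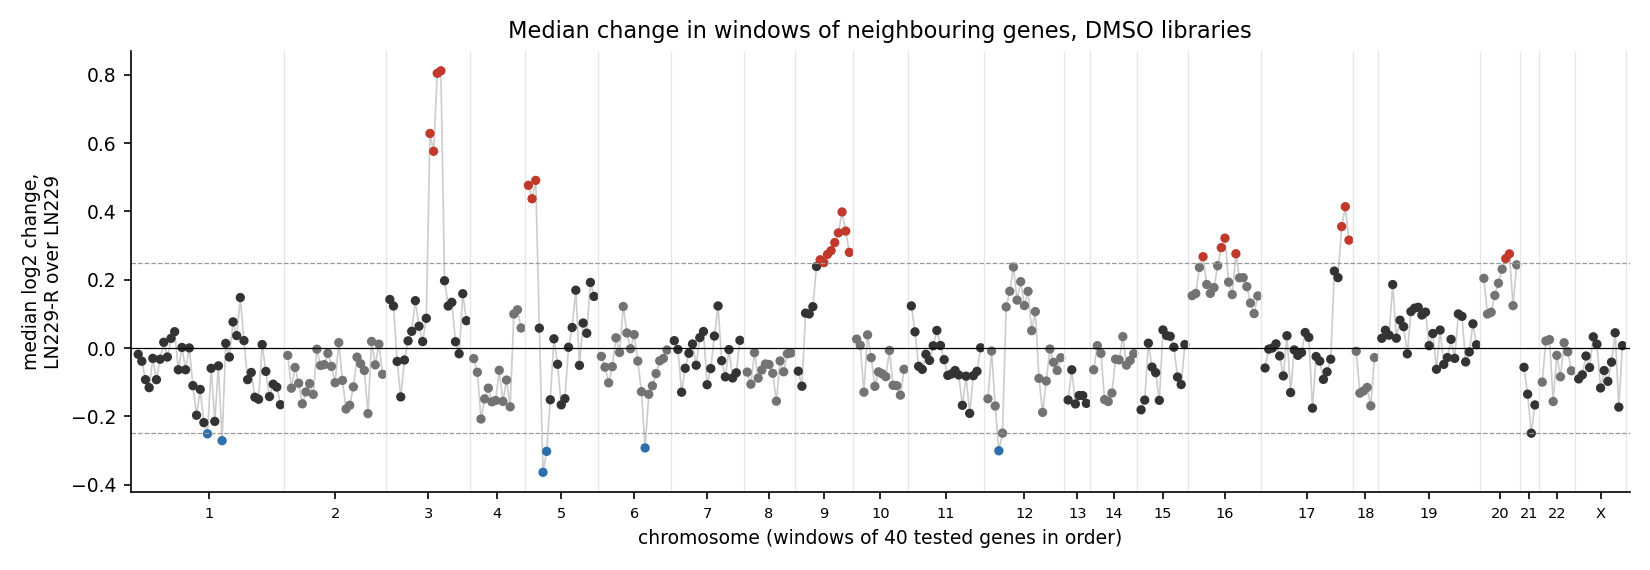
Median log2 change of LN229-R over LN229 in DMSO (vertical axis) in windows of 40 tested genes in chromosomal order (horizontal axis), chromosomes 1 to 22 and X. Each point is a window, red at 0.25 or above and blue at -0.25 or below (dashed lines). The chromosome 3 stretch with a median of 0.75 stands above all others, and chromosome 5 has 1 stretch up and 1 down.

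The STM2457-treated libraries of the 2 lines did not enter the tests above. They stand in separately normalized tables, so differences between them were centred on their median and not tested. Of 1483 genes called in DMSO that have a value in both STM2457 tables, 1411 (95.1%) had the opposite sign there under the names in those tables. Among those with a log2 change of at least 1, 439 of 460 did. MAGEA10 had 3.62, 3.74 and 5.05 normalized counts in STM2457-treated libraries named LN229-R and 129, 208 and 112 in those named LN229. COL5A2 had 28.9, 75.7 and 46.6 in those named LN229-R and 648, 347 and 452 in those named LN229. CHRDL1, which fell in DMSO, had 3071, 2700.1 and 3397 in those named LN229-R and 559, 477 and 718 in those named LN229. In each of these genes the order of the names was the reverse of that in the DMSO table. MGMT had 169, 190.5 and 165 in the STM2457-treated libraries named LN229-R.

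**Figure D4:**
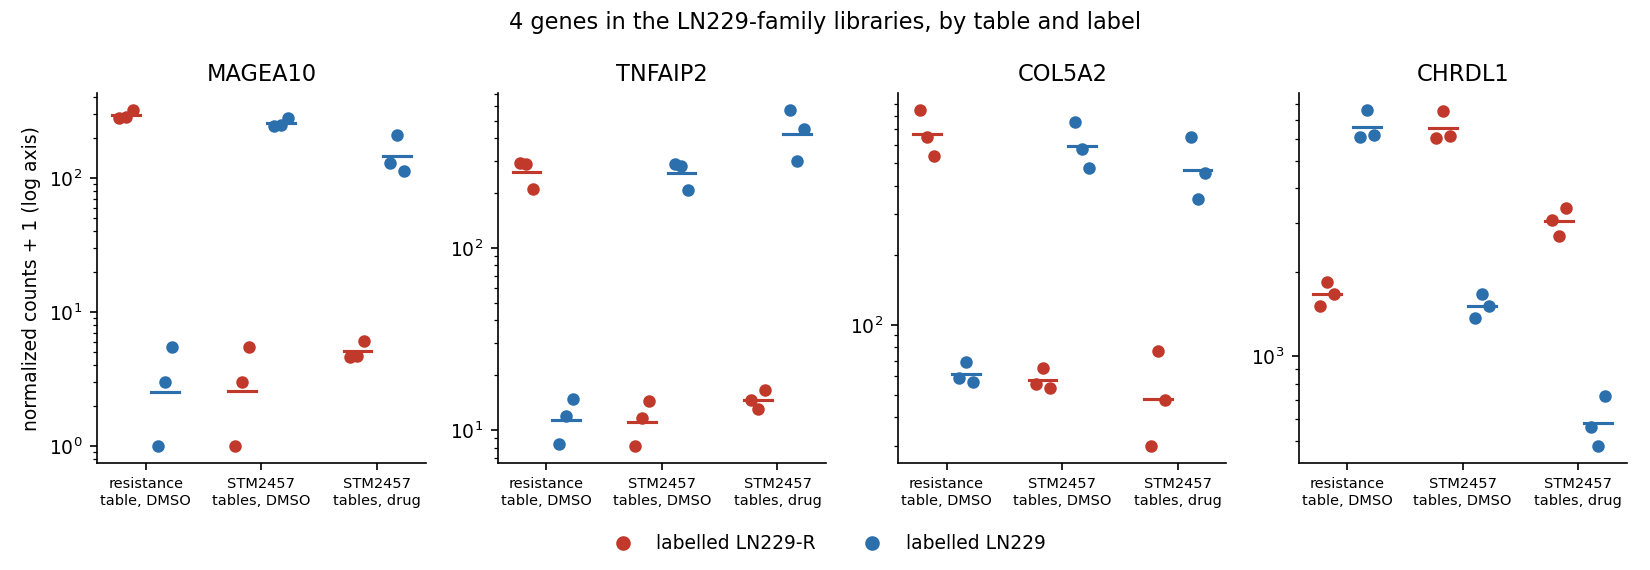
Normalized counts plus 1 (log axis) of MAGEA10, TNFAIP2, COL5A2 and CHRDL1 in libraries labelled LN229-R (red, left of each pair) and LN229 (blue, right), in DMSO in the table of both lines and in DMSO and STM2457 in the tables of each line. Points are libraries and bars are means of the log values. The labels change places between the first pair and the other pairs in all 4 genes.

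In the STM2457 libraries the stretches had medians of the opposite sign. Medians there, named LN229-R minus named LN229, were -0.70 for the chromosome 3 stretch, -0.43 and 0.31 for the chromosome 5 stretches, -0.33 for chromosome 9 and -0.37 for chromosome 17. Over 386 windows the medians of the 2 sets of libraries had a Pearson correlation of -0.93 (Spearman -0.89), and 340 windows had opposite signs. Windows share chromosomes and the same 2 lines, so this is a description. Against the difference of U87-R and U87 MG the same windows gave -0.03 (Spearman 0.08), with 187 opposite signs, and the chromosome 3 stretch had a median of -0.06 there. The upward stretch of chromosome 5 had -0.57 in the U87 family.

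**Figure D5:**
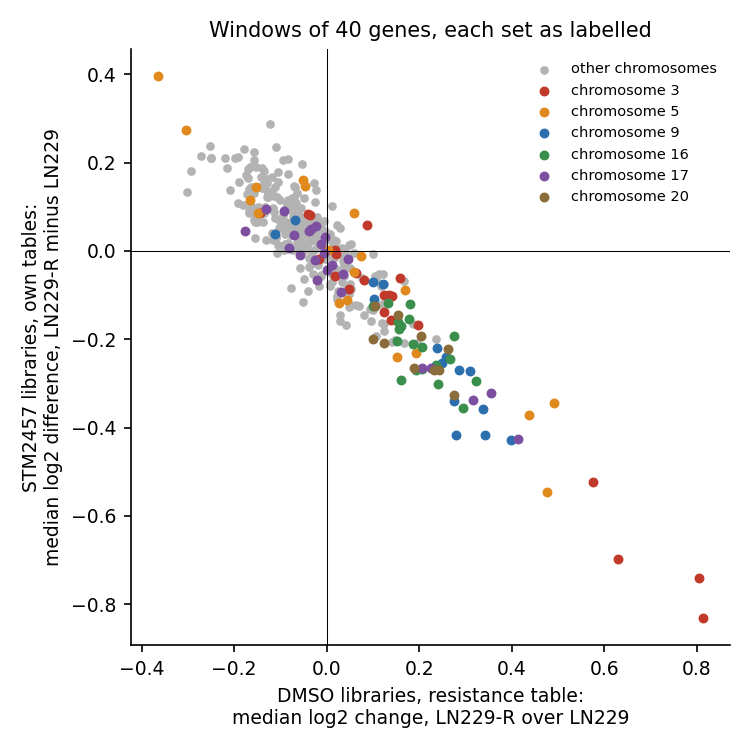
Each point is a window of 40 genes. The horizontal axis is its median log2 change, LN229-R over LN229, in the DMSO libraries of the table of both lines, and the vertical axis is its median log2 difference, LN229-R minus LN229, in the STM2457 libraries as named in their own tables. Points fall along a descending line (r = -0.93, n = 386), with chromosome 3 windows at the lower right.

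In the U87 family, which had another medium and library kit, limma called 510 genes higher in U87-R (3.13%) and 187 lower (1.15%) of 16306 (4.27%), 1176 in all with the replicate block, and 330, 315 or 420 without U87 MG replicate 2, U87-R replicate 2 or U87-R replicate 3. MGMT was opposite there as the LN229 libraries are labelled: U87-R averaged 1043 ± 309 normalized counts and U87 MG 0.726 ± 1.26 (SD, n = 3 each). The difference between the 2 resistance differences was -17.06 for MGMT on the log2(value + 1) scale (adjusted p = 7.1e-09), which depends on the pseudocount because groups lie at 0, and 9.28 for SLIT3 (SE 0.52, adjusted p = 2.6e-07). MAGEA11 was higher in both families as labelled, with 7.34 in LN229 cells and 6.15 in U87 cells, and the difference of 1.19 (SE 0.65) did not pass. With the LN229 names exchanged that difference was -13.48 (adjusted p = 6.4e-08). The MGMT difference was then -1.78 and did not pass (adjusted p = 0.11). Over all genes, 1233 of 13890 (8.88%) differed between families (4.54% higher and 4.33% lower in the LN229 family), 1976 with the replicate block, 821 or 785 without LN229-R replicate 1 or 3, and 1034 with the names exchanged.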

How the data were processed

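RNA-seq was run on 24 libraries from total RNA, of which the 6 LN229-family DMSO libraries are compared here. The deposited values are normalized counts (a signal, not raw counts) that the authors made in 6 tables of 6 libraries, each table scaled separately. Trimmomatic 0.39, STAR 2.7.11a, Salmon 1.4.0, DESeq2 and GRCh38 are named in the submitters' processing notes, without their settings. The read depth is not given in the sources used here, so no counting interval is given. For LN229 cells the Watchmaker mRNA kit was used, per the labels' protocols.

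Values were analysed as log2(value + 1) for genes averaging 10 or more over the 6 libraries, with limma 3.58.1 (R 4.3.3, variance trend, two-sided, Benjamini and Hochberg adjustment, threshold 0.05). The step was tested on simulated data. A model with both cell families tested the difference between their resistance differences. Windows and complement genes were chosen after seeing the data. The members and the 65 gene lists were chosen with earlier results of these data known. Named genes were the 30 largest rises and falls among called genes that averaged 100 or more and whose groups were apart, a fixed panel, up to 8 called members per list, members of runs, and genes averaging 100 or more in one group and under 3 in each library of the other. Like-numbered libraries deviated together weakly (r = 0.13, 0.20 and 0.11), against -0.20 to 0.08 for libraries of unlike number. The replicate number was therefore also fitted as a block. Alternatives were other pseudocounts, level filters, scalings, thresholds, no variance trend, the block and leaving out each library. One further gene is not reported here. Figures were drawn with matplotlib 3.10.9 in Python 3.11.15.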

Additional observations from a re-analysis of the deposited data

Results flagged for a closer look

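In 10 genes of the fixed panel the resistance difference of the LN229 family, as labelled, differed from that of the U87 family by limma's test of the difference (adjusted p under 0.05). Differences are LN229 family minus U87 family on the log2(value + 1) scale. MGMT differed by -17.06 (adjusted p = 7.1e-09) and CHFR, a mitotic checkpoint ligase, by -7.14, with CHFR averaging 209 ± 119 in the U87-R libraries and 1.47 ± 2.54 in the U87 MG libraries (SD, n = 3 each) and no call in LN229 cells. SLIT3 differed by 9.28, TNFAIP2 by 2.38, ABCC3 by 2.69, MCM2 by 1.41 and AKR1B1 by 0.75. BST2 differed by -3.37, TP53I3 by -1.62 and CRELD2 by -1.26, and each of these 3 genes fell in LN229-R as labelled and rose in U87-R. With the LN229 names exchanged, MGMT (-1.78, adjusted p = 0.11), CRELD2 (-0.15, adjusted p = 0.51) and TP53I3 (-0.64, adjusted p = 0.10) no longer differed by that test. AKR1B1 (adjusted p = 0.052) and MCM2 (adjusted p = 0.068) did not pass either. BST2 (-1.73, adjusted p = 0.032) and CHFR (-6.37, adjusted p = 0.00019) still differed. The library kit and the medium differ between the families and cannot be told apart from the cell line.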

How the results depend on the processing

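The 1585 genes called in the LN229 family became 562 with a log2 change of at least 1, 543 at an adjusted p under 0.01, 951 with no variance trend, 2600 with the replicate block, and 534 to 3262 when 1 library was left out. Other pseudocounts, filters and scalings gave 1315 to 1732. Of 377 named called genes, 265 kept the call with no variance trend, 363 with equal totals and 376 with the replicate block. Fewer kept it when 1 library was left out: 208, 227 or 198 without LN229-R replicate 1, 2 or 3. Without LN229 replicate 1, 2 or 3 the call was kept by 287, 377 or 268. In the U87 family the count of 697 became 1176 with the replicate block and 315 to 607 when 1 library was left out. The 1233 genes that differed between families became 1976 with the replicate block and 785 to 1455 when 1 library was left out. With the LN229 names exchanged the difference between families turned its sign for MAGEA11 (-13.48), TNFAIP2 (-6.65), ICAM1 (-1.86), SLIT3 (-7.33), ABCC3 (-4.02), AKR1B1 (-0.55) and MCM2 (-0.90), since the exchange reverses the LN229 difference by construction; AKR1B1 (adjusted p = 0.052) and MCM2 (0.068) then did not pass. The sign also turned for SLC7A11 (0.82, against -1.16) and MSH6 (-0.11, against 0.19), which passed under neither naming. MGMT (-1.78), CRELD2 (-0.15) and TP53I3 (-0.64) no longer passed. By limma's test of the difference, EGLN3 (-3.60, adjusted p = 0.00057) and METTL3 (-0.55, adjusted p = 0.024) passed only after the exchange. These values follow from the same reversal of the LN229 difference. The cause of shifts under the other settings was not tested.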
